A study of Mus musculus with 51 samples.

Results

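Serotonergic (5HT) neurons of labelled PRC2 mutant mice were compared at 8 months against 4 months of age. The question was how expression in neurons labelled as mutant for Polycomb repressive complex 2 (PRC2) differs between the ages. The comparison took all 8 mutant 5HT libraries, 4 per age, of the 51 libraries in the series, and all 24564 gene rows of the count table. The source was adult mouse midbrain, from which the neurons had been sorted by fluorescence (FACS), and libraries had been made with Smart-seq2, which reads whole transcripts from small amounts of RNA. All animals carried the strain label SertCreEed, which names a Cre recombinase driven by the serotonin transporter gene and the PRC2 subunit gene Eed. The 4-month mutants were 2 males (S425, S426) and 2 females (S427, S429), and the 8-month mutants were 2 males (S442, S443) and 2 females (S446, S447). The 8 libraries labelled wt, of the same strain label, gave the change with age without the mutation: 2 males and 2 females at 4 months, and 1 male and 3 females at 8 months. Whether wt animals carried Cre, and which Eed alleles each group carried, is not given in the labels. The 2 ages are different animals, so age and any other difference between the cohorts cannot be told apart. All 16 libraries belonged to 1 labelled sequencing set.

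PRC2 methylates histone H3 at promoters of silent genes, and Eed is the subunit that binds the mark and stimulates the enzyme. Its classic targets are regulators of embryonic patterning, such as the HOX genes, and cell cycle inhibitor genes, which adult neurons keep silent. Serotonergic neurons of the brainstem make serotonin from tryptophan with Tph2 and Ddc, load it into vesicles with Slc18a2 and take it back up with Slc6a4. Their identity genes are driven by transcription factors that include Fev, Lmx1b, Gata2 and Gata3.

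Total counts were 2795515 to 6047882 in the mutant libraries at 4 months and 5568472 to 6369421 at 8 months. In wt they were 3211468 to 5602332 and 4894911 to 6344738. The mutant library S427 and the wt library S369, both from 4 months, were the shallowest. Levels are given in CPM, counts per 1000000 of the TMM-scaled library size, always in the order S425, S426, S427, S429 at 4 months and S442, S443, S446, S447 at 8 months. A floor of 3 counts stood for 0.468 to 1.28 CPM at 4 months and 0.461 to 0.520 CPM at 8 months in the mutants. Eed itself (chromosome 7, 89954654 to 89980976) stood at 21.4, 29.3, 28.6 and 22 CPM at 4 months and at 14.5, 17.2, 13.2 and 25.5 CPM at 8 months (log2 fold change -0.52, SE 0.38, edgeR adjusted p = 0.742). Its wt levels were 7.84 to 14.2 CPM and 11.3 to 15.8 CPM. Because exons are summed in this row, a deletion of some of them need not show, so Eed checks no label, and "mutant" stands for "labelled mutant" throughout. The row of the mCherry reporter held 0.855 to 12.3 CPM in the mutants at 4 months, lowest in S427, and 8.27 to 15.1 CPM at 8 months.

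In the mutants the called genes that fell with age included Tph2, Slc6a4 and 4 further genes of serotonin synthesis and handling. Those that rose included 3 Hoxd genes, other patterning genes and Slc32a1, Slc6a5 and Slc17a6, transporter genes for other transmitters. Of 15633 genes tested, 38 were called by edgeR's quasi-likelihood test at a Benjamini-Hochberg adjusted p under 0.05 (0.243% of those tested), 18 higher (0.115%) and 20 lower (0.128%) at 8 months. An unadjusted p under 0.05 was reached by 1431 genes (9.15%), 755 higher (4.83%) and 676 lower (4.32%). The same test in wt animals called 0 genes, with 964 at an unadjusted p under 0.05 (6.17%), and DESeq2 called 15 there against 216 in the mutants. The difference between both age changes, tested as an interaction term, was called for 2 genes (0.0128%), Tph2 and Slc6a4, and had an unadjusted p under 0.05 for 620 (3.97%). The number of called genes depended on the libraries: it was 16, 19, 13 and 11 without S442, S443, S446 and S447, and 22, 19, 39 and 20 without S425, S426, S427 and S429. In these 8 fits 10 of the 38 genes were called each time, among them Vax2os, Slc6a4, Tph2, Slc32a1, Hoxd11, Nwd2, Gch1, Fendrr and Gucy2f. The 38 genes kept their direction in every one of these fits and in fits of males and of females alone, although their choice rests on the same libraries. The median log2 fold change over all tested genes was -0.02 in mutants and 0.00 in wt.

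**Figure D1:**
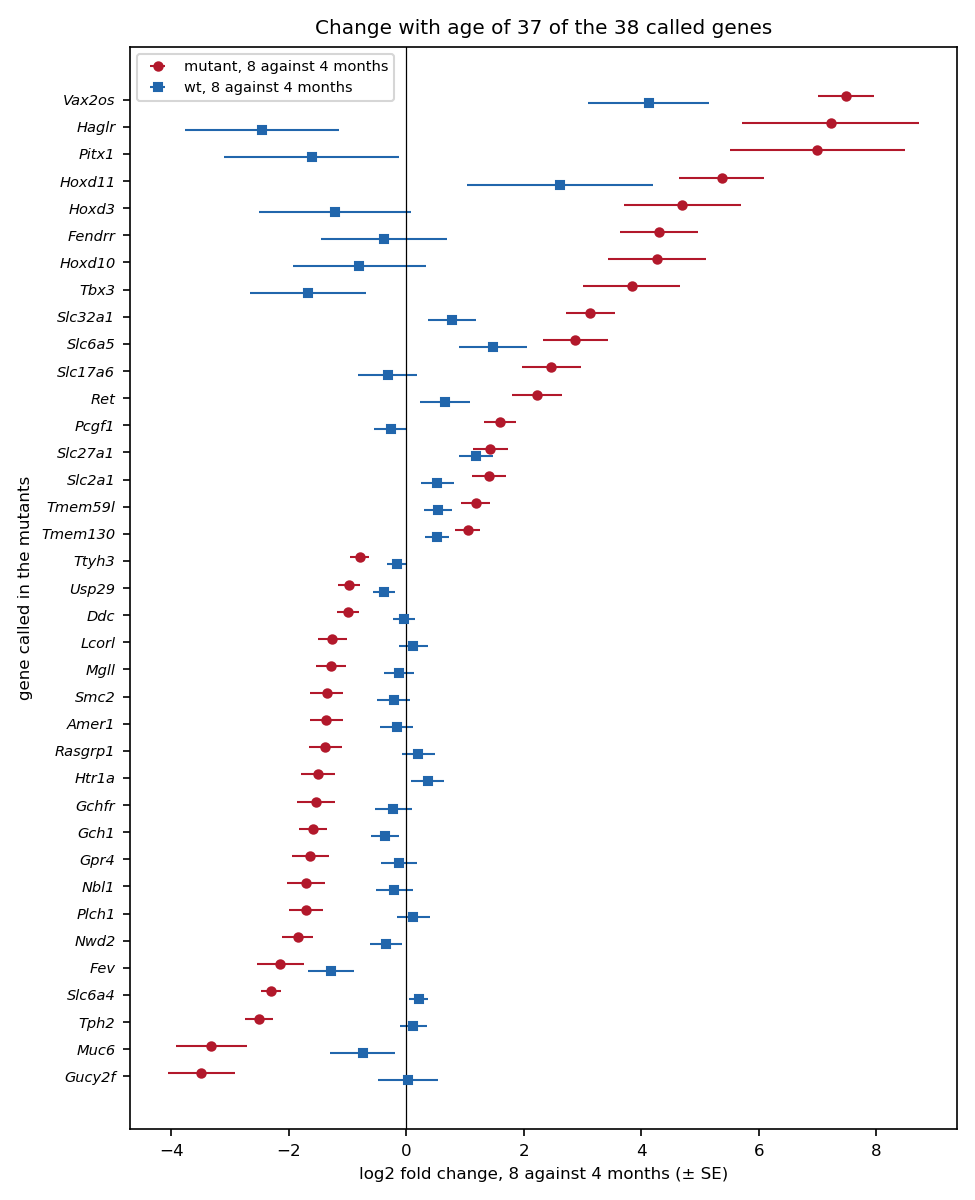
The plot of changes with age gives the log2 fold change from 4 to 8 months (horizontal axis, with the SE as a bar) for 37 of the 38 genes called in the mutants (vertical axis), in mutants (red circles, n = 4 per age) and in wt (blue squares, n = 4 per age). Tph2 stands at -2.51 in mutants and 0.12 in wt, and Slc6a4 at -2.30 and 0.21. The wt value of Hoxd11, which had 0 counts in wt at 4 months, depends on the prior count of the fit, and that of Vax2os rests on 1 count at that age. The mutant values were those that chose the genes.

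Promoter windows of 2 genes that fell and 2 that rose are shown because PRC2 is known to occupy CpG-rich promoters of silent genes. They are the 250 bases before an annotated start in RefSeq (GRCm38.p6), 5′ to 3′ on the gene's own strand, with every CpG in capitals. For Slc32a1 that start lies inside the RefSeq span of the gene (158607260 to 158615747). Tph2 (tryptophan hydroxylase, chr10:115185023-115185272, minus strand) held 7 CpG, Slc6a4 (the serotonin transporter, chr11:76998347-76998596, plus strand) held 18, Slc32a1 (the vesicular GABA and glycine transporter, chr2:158610508-158610757, plus strand) held 12, and Hoxd3 (a HOX gene, chr2:74711743-74711992, plus strand) held 12.
Tph2: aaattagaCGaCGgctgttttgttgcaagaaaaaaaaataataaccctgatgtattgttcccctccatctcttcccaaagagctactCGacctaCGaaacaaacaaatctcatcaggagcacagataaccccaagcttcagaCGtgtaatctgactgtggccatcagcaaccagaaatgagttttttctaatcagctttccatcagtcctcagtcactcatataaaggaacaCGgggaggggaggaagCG
Slc6a4: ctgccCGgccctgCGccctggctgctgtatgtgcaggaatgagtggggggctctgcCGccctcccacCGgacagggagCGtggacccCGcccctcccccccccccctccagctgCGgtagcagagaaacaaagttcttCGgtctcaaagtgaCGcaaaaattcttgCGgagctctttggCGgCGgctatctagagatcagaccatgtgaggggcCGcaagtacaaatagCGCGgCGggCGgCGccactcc
Slc32a1: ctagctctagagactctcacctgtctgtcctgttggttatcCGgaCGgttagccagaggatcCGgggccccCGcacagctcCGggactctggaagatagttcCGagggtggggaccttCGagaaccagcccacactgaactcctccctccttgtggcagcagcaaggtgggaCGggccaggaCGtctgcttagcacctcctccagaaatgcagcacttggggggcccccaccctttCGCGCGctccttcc
Hoxd3: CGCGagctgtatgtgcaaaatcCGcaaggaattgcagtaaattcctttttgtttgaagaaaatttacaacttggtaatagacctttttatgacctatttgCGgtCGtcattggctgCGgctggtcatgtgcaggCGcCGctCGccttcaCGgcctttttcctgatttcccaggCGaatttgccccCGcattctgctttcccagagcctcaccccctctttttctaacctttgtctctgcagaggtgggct
The letters CG, which read alike on both strands, were counted in windows of 300 bases, the 250 shown and the next 50. At least 15 were present in 58.3% of the 12 called-higher genes with a window, in 57.9% of the 19 called-lower genes with a window and in 50% of the 22 HOX genes with one. The share was 65.6% over 11535 tested genes with a window and 35.2% over all 27025 genes with a window. The median number was 17.5 in the genes called higher and 20 in those called lower, against 19.3 in the genes tested. The medians of the genes that rose and of the genes that fell thus lay on either side of that of the genes tested, a difference that was not tested. Among the called genes without a window were Amer1, Haglr, Pcgf1, Pitx1, Ret and Tbx3.

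Of 18 genes of serotonin synthesis and handling, 6 were called lower at 8 months (0.128% of all tested genes) and 0 higher. Tph2 (chromosome 10, 115078641 to 115185022), the rate-limiting enzyme of neuronal serotonin synthesis, stood at 3326, 1913, 1689.9 and 2197 CPM at 4 months and at 328, 555, 393 and 329 CPM at 8 months. Every 8-month library lay below every 4-month library, and below all 8 wt libraries, which spanned 1984 to 2914 CPM at 4 months and 2112 to 3355 CPM at 8 months. The gene fell by 2.51 on the log2 scale (SE 0.24, edgeR adjusted p = 3.07e-06). Slc6a4 (chromosome 11, 76998597 to 77032343), the plasma membrane serotonin transporter, stood at 3435, 2524, 2452 and 2415 CPM and then at 515, 576, 593 and 508 CPM (log2 fold change -2.30, SE 0.17, edgeR adjusted p = 3.28e-08). The 8-month libraries lay close together and far under the 4-month ones, of which S425 was the highest. For both genes the change differed from that in wt: the interaction was -2.62 for Tph2 (SE 0.33, edgeR adjusted p = 0.000495) and -2.51 for Slc6a4 (SE 0.23, adjusted p = 5.22e-06). Their wt changes with age were 0.12 (SE 0.23) and 0.21 (SE 0.16). Slc6a4 is also the gene that names the Cre driver. In sorted bulk samples, fewer cells of a type and less RNA per cell cannot be told apart.

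Ddc (chromosome 11, 11814101 to 11898144), the decarboxylase of the last step of synthesis, stood at 1003, 877.7, 834 and 794 CPM at 4 months and 363, 538, 457 and 408 CPM at 8 months. All 8-month libraries were below the 4-month ones (log2 fold change -0.99, SE 0.18, edgeR adjusted p = 0.0187). This call was lost without S425, S426, S442, S446 or S447 (adjusted p over the 8 fits 0.00716 to 0.135), and the gene overlaps the non-coding gene 1700042O10Rik. Slc18a2, which loads monoamines into vesicles, stood at 2621, 2629.7, 1269 and 2365 CPM and then 1076, 1141, 1284 and 1184 CPM. The groups overlapped through S427 alone, and the gene was not called (log2 fold change -0.92, SE 0.22, edgeR adjusted p = 0.0885). Without S427 it was called (log2 fold change -1.13, edgeR adjusted p = 0.00178). Maob, the monoamine oxidase of serotonergic neurons, stood at 359, 277, 168 and 254 CPM and then 87.8, 182, 81.1 and 90.8 CPM. It was not called either (log2 fold change -1.26, SE 0.31, edgeR adjusted p = 0.12), but was called without S443, the highest at 8 months (-1.67, edgeR adjusted p = 0.0331), or without S427 (-1.44, adjusted p = 0.0444). Maoa, Slc22a3 and Slc29a4, which degrade or take up monoamines, had log2 fold changes of -0.55, -0.96 and -0.74 with unadjusted edgeR p of 0.0398, 0.00424 and 0.0204 and were not called.

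The cofactor of tryptophan hydroxylase, tetrahydrobiopterin, depends on Gch1, whose product catalyses the first step of its synthesis, and on Gchfr, which encodes the feedback regulator of that enzyme. Gch1 (chromosome 14, 47153895 to 47189413) stood at 209, 168, 124 and 146 CPM at 4 months and 54.3, 58.5, 37.2 and 66.0 CPM at 8 months. The ages did not overlap, and the 8-month mutants lay below all wt libraries (95.6 to 184 and 97.6 to 135 CPM; log2 fold change -1.59, SE 0.24, edgeR adjusted p = 0.00257). Gchfr stood at 163, 78.3, 41.9 and 98.4 CPM and then 26.0, 48.1, 31.6 and 25.3 CPM. Here S427 at 4 months lay below S443 at 8 months, so the ages overlapped (log2 fold change -1.54, SE 0.32, edgeR adjusted p = 0.0412). Its call was lost without S425, S426, S429, S442, S446 or S447 (adjusted p 0.00263 to 0.221). The later enzymes of the cofactor pathway showed log2 fold changes near 0: Pts 0.05, Spr 0.26, Qdpr -0.07 and Pcbd1 -0.18.

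The list of 18 genes also holds 4 serotonin receptor genes, of which 1 was called lower (0.128% over all genes). Htr1a, the somatodendritic autoreceptor, stood at 74.2, 90.4, 62.8 and 73.7 CPM at 4 months and 17.2, 38.7, 27.6 and 23.2 CPM at 8 months, and wt libraries held 47.7 to 133 and 124 to 148 CPM. Without overlap between the ages, it fell by 1.5 on the log2 scale (SE 0.29, edgeR adjusted p = 0.0279). The call was lost without S425, S426, S429, S442, S446 or S447 (adjusted p 0.016 to 0.166). Htr1d held 19.7 to 34.1 CPM and then 6.59 to 11.2 CPM (-1.47, unadjusted edgeR p = 0.00102), and Htr5b held 17.0 to 34.7 CPM and then 3.99 to 11.4 CPM (-1.64, unadjusted p = 0.000887). Neither overlapped between the ages, and neither passed the adjusted threshold. Htr1b was at 5.46 to 23.9 CPM and 1.56 to 5.96 CPM (-1.87, unadjusted p = 0.0266).

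Over the 18 genes of serotonin synthesis and handling, which all passed the filter on low counts, 16 had a negative log2 fold change, with a median of -1.13 against -0.02 over all tested genes. Of them 6 were called lower and 0 higher, and 14 had an unadjusted p under 0.05 on the lower side (4.32% over all genes). The ages did not overlap for 7 of the 18, all lower (2.95% over all genes). In wt the median of the same genes was 0.11, with 1 higher and 0 lower at an unadjusted p under 0.05 (3.19% and 2.98% over all genes). The interaction was negative with an unadjusted p under 0.05 for 10 of the 18 (2.03% over all genes). Their summed level was 7093 to 11889 CPM at 4 months and 2869 to 3651 CPM at 8 months, where wt held 7389 to 10449.8 and 9816 to 11589 CPM.

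**Figure D2:**
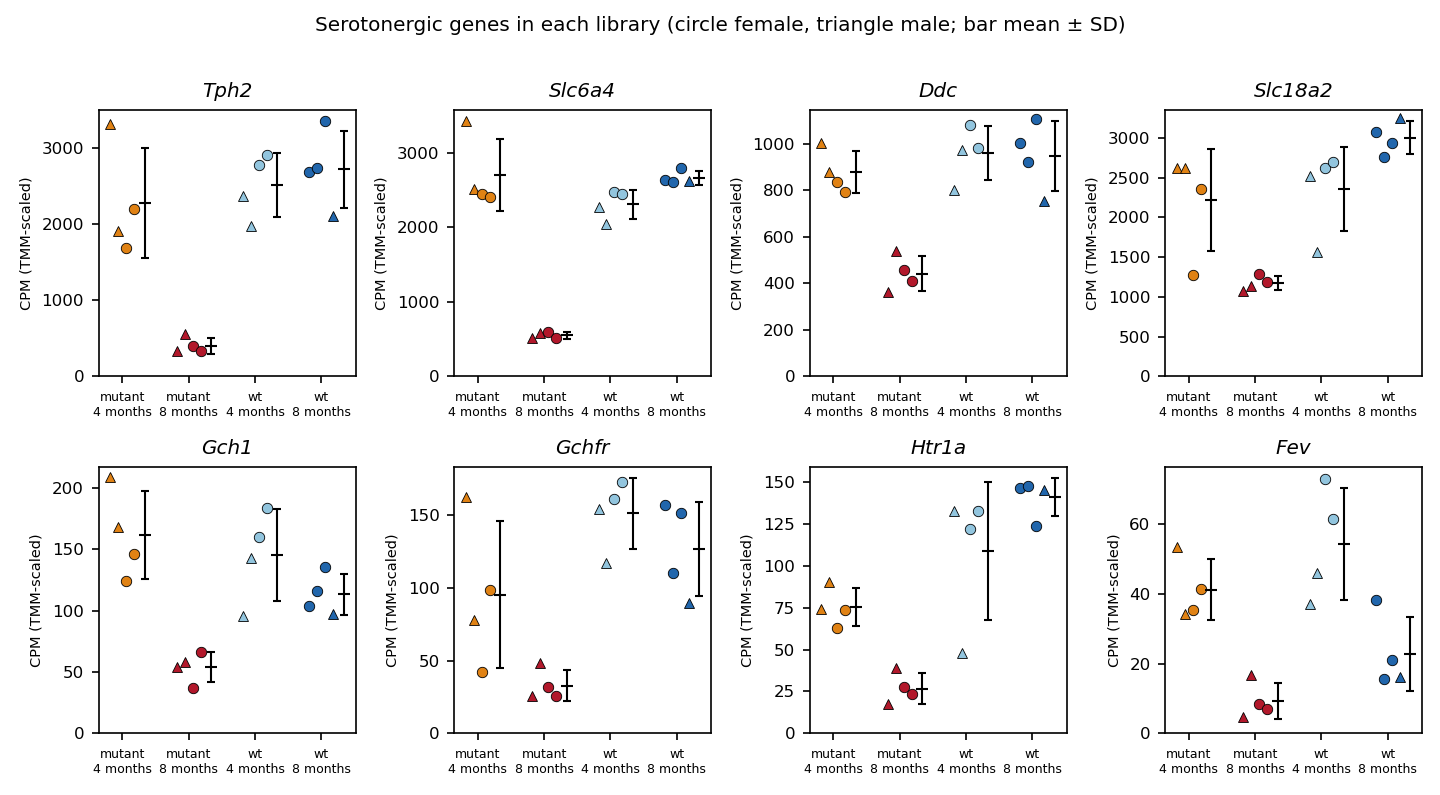
The plot of serotonergic genes gives the CPM of 8 genes (vertical axes, each from 0) in each library of the 4 groups (horizontal axes), with circles for females, triangles for males and a bar for mean ± SD (n = 4). For Tph2 and Slc6a4 all 8-month mutants (328 to 555 and 508 to 593 CPM) stand below all other libraries, and for Slc18a2 the 4-month mutant S427 (1269 CPM) stands among the 8-month mutants.

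Among the transcription factors of serotonergic identity, Fev was called. Fev (chromosome 1, 74881501 to 74885473), an ETS factor that maintains serotonergic gene expression, stood at 53.5, 34.3, 35.5 and 41.5 CPM at 4 months and 4.82, 16.8, 8.44 and 7.06 CPM at 8 months. The ages did not overlap (log2 fold change -2.15, SE 0.40, edgeR adjusted p = 0.0225). Fev was lower at 8 months in wt too, with 37.1 to 73.0 CPM and then 15.5 to 38.4 CPM (-1.28, SE 0.39, unadjusted edgeR p = 0.00319), and the interaction was -0.86 (SE 0.54, unadjusted p = 0.128). The mutant call was lost without S425, S442, S446 or S447 (adjusted p 0.00364 to 0.135). Gata2 held 52.6 to 79.9 CPM and then 27.3 to 48.2 CPM without overlap (log2 fold change -0.84, SE 0.24, edgeR adjusted p = 0.212), which is not a call, and Gata3 held 133 to 244 and 99.3 to 154 CPM (log2 fold change -0.49, SE 0.20, edgeR adjusted p = 0.459). Lmx1b was near the floor in most libraries, at 6.91, 1.86, 0.427 and 5.62 CPM and 1.03, 2.08, 1.99 and 0.307 CPM (log2 fold change -1.46, SE 1.17, edgeR adjusted p = 0.784). Nr3c1, the glucocorticoid receptor, held 159.8 to 259.6 and 125 to 155 CPM (-0.67, unadjusted p = 0.00251). Of 14 listed factors 12 passed the filter and 10 of these had a negative log2 fold change, with a median of -0.75. Their summed level over all 14 was 447.4 to 687 CPM and 327 to 387 CPM, and 509.8 to 584 and 429.4 to 488 CPM in wt. Gata3 and Nr3c1 made up a large part of the mutant sums, and Fev and Lmx1b a small part.

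HOX genes, which set position along the body axis and are silent in midbrain neurons, were detected in larger number at 8 months. At least 3 counts were found for 11, 17, 17 and 16 of the 39 HOX genes at 4 months and for 29, 30, 30 and 33 at 8 months. In wt the number was 3 to 8 per library, and the shallowest mutant library, S427, was not the lowest at 4 months. Summed over all 39 genes, HOX transcripts made up 24.0, 35.4, 109 and 27.6 CPM at 4 months and 428, 398, 567 and 475 CPM at 8 months. The ages did not overlap, and S427 was the highest at 4 months. Wt sums were 6.39 to 29.7 CPM and 6.48 to 12.4 CPM. The sum of the 9 Hoxd genes went from 9.87 to 24.8 CPM to 211 to 320.3 CPM, of the 9 Hoxc genes from 4.06 to 17.1 to 62.0 to 125, of the 11 Hoxa genes from 3.78 to 55.1 to 76.3 to 106.8, and of the 10 Hoxb genes from 1.32 to 12.4 to 14.6 to 26.0 CPM.

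Of the 24 HOX genes tested, 3 were called higher and 0 lower (0.115% and 0.128% over all genes). The 3 called were all in the Hoxd cluster on chromosome 2. Hoxd11 (74679558 to 74687016) stood at 0.494, 1.30, 0 and 3.12 CPM at 4 months and 54.9, 30.4, 70.0 and 65.3 CPM at 8 months. Every 8-month library lay above every 4-month library (log2 fold change 5.36, SE 0.72, edgeR adjusted p = 0.00146). Hoxd10 (74684273 to 74695106) stood at 5.59, 3.17, 9.83 and 2.50 CPM and then 85.6, 88.5, 113 and 97.7 CPM, also without overlap (log2 fold change 4.27, SE 0.84, edgeR adjusted p = 0.0302). Hoxd3 (74711993 to 74748271) stood at 0, 2.42, 0 and 4.06 CPM and then 32.0, 36.3, 71.7 and 42.1 CPM, without overlap (log2 fold change 4.70, SE 1.0, edgeR adjusted p = 0.0468). Hoxd11 was called without each library in turn, Hoxd10 lost its call without S425, S426, S429, S442, S443, S446 or S447 (adjusted p 0.0127 to 0.135), and Hoxd3 lost it without any 1 library (adjusted p 0.0676 to 0.226). In RefSeq, Hoxd10 and Hoxd11 overlap by 2744 bases and Hoxd3 and Hoxd4 by 7183, so counts of these neighbours may share reads. Haglr, a long non-coding RNA gene next to Hoxd3 (74748422 to 74762896), had 2 counts in all 4-month mutants, both in S427, and 24.3, 12, 24.8 and 9.52 CPM at 8 months. That is a ratio of 177 (95% counting interval 48.6 to 1463; edgeR adjusted p = 0.0417), and the call was lost without S425, S426, S429, S442, S443, S446 or S447 (adjusted p 0.027 to 0.196). In wt, Haglr held 0 to 3.35 CPM at 4 months (35 counts in all) and 0 to 0.539 CPM at 8 months. The interaction was 9.68 (SE 1.95, unadjusted edgeR p = 5.89e-05, adjusted p = 0.230).

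Of the 39 HOX genes 24 passed the filter on low counts, which a gene could pass through its 8-month level alone. Their log2 fold changes ran from 0.49 to 5.59, the highest being that of Hoxa5 (0 to 0.427 CPM and then 3.07 to 10.5 CPM, edgeR adjusted p = 0.253). Of those not called, Hoxd4 held 0.625 to 7.26 CPM and then 23.4 to 39.3 CPM (log2 fold change 3.18, SE 0.70, edgeR adjusted p = 0.0634), and Hoxc8 held 0.987 to 6.41 and 22.4 to 44.5 CPM (log2 fold change 3.84, SE 0.95, edgeR adjusted p = 0.122). Hoxa3 (0.156 to 1.28 and 9.19 to 20.7 CPM), Hoxc10 (0.937 to 6.41 and 9.06 to 38.9 CPM) and Hoxd8 (0 to 1.56 and 8.28 to 20.4 CPM) had unadjusted edgeR p of 0.00156, 0.0013 and 0.00194. Hoxa7 and Hoxa10 were separated less clearly by age, since S427 held 10.3 and 8.12 CPM of them at 4 months.

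**Figure D3:**
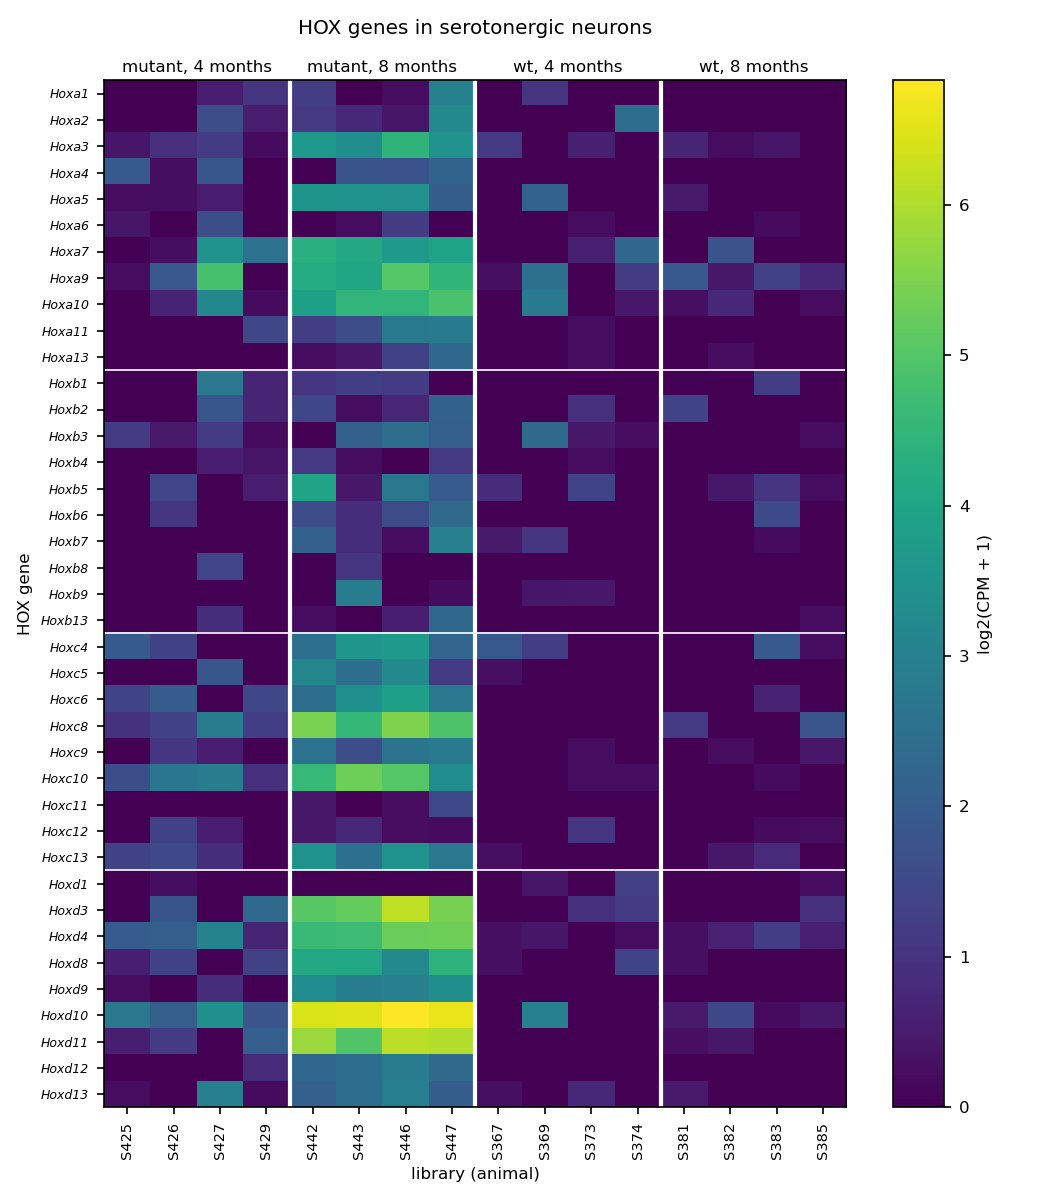
The heat map of HOX genes gives log2(CPM + 1) of all 39 genes (rows, white lines between clusters) in the 16 5HT libraries (columns, white lines between groups). The 4 mutant columns at 8 months are the brightest, above all in the Hoxd rows Hoxd10 (85.6 to 113 CPM) and Hoxd11 (30.4 to 70.0 CPM), and S427 is the brightest at 4 months in the Hoxa rows.

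Outside the HOX clusters, the largest rise was that of Vax2os, a non-coding RNA gene that overlaps the eye homeobox gene Vax2. Vax2os (chromosome 6, 83692804 to 83712201) stood at 4.44, 0.746, 2.99 and 0.625 CPM at 4 months and 387, 279.7, 362 and 525 CPM at 8 months. The ages were far apart (log2 fold change 7.49, SE 0.47, edgeR adjusted p = 3.19e-09), and it was called under all 18 alternatives tried. In wt it went from 0 to 0.341 CPM to 0.876 to 2.16 CPM (4.12, SE 1.04, unadjusted edgeR p = 0.000644), and the interaction was 3.36 (SE 2.80, unadjusted p = 0.243). The wt libraries held 1 count of Vax2os in all at 4 months, in S369, and 30 at 8 months. The size of the wt change and of the interaction is therefore uncertain. Both genes share 963 bases and the use of strand in counting is not given, so their reads cannot be told apart there. Vax2 itself held 0 to 0.312 CPM and then 4.65 to 13.4 CPM (log2 fold change 6.38, SE 1.70, edgeR adjusted p = 0.15). Fendrr, a long non-coding RNA gene next to Foxf1, stood at 4.77, 2.05, 6.41 and 1.41 CPM and then 76.8, 50.1, 85.1 and 60.4 CPM, without overlap (log2 fold change 4.30, SE 0.66, edgeR adjusted p = 0.00257). Foxf1, a forkhead factor of mesoderm, held 0.186 to 4.27 CPM and then 15.7 to 29.1 CPM without a call (log2 fold change 3.31, SE 0.87, edgeR adjusted p = 0.154).

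Further regulators of limb and organ patterning, among them the paired-like homeobox gene Pitx1 and the T-box gene Tbx3, were called higher. Pitx1 stood at 0.823, 0, 0 and 0 CPM, all from S425, and then 8.96, 28.5, 12.3 and 19.4 CPM (log2 fold change 6.99, SE 1.48, edgeR adjusted p = 0.0468). Tbx3 stood at 0, 5.03, 3.85 and 3.90 CPM and then 44.6, 35.4, 43.2 and 57.7 CPM (log2 fold change 3.83, SE 0.82, edgeR adjusted p = 0.0481). Pitx1 (adjusted p 0.0623 to 0.179) and Tbx3 (adjusted p 0.058 to 0.245) lost the call without any 1 library. In wt, Pitx1 held 0 to 3.50 and 0 to 0.351 CPM and Tbx3 0.206 to 3.07 and 0 to 0.614 CPM.

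Further patterning factors were higher without reaching a call. Lhx2, a forebrain LIM factor, held 0 to 1.28 CPM and then 9.52 to 21.3 CPM (log2 fold change 5.45, SE 1.35, edgeR adjusted p = 0.114), and Isl1, a LIM factor of motor neurons, held 0.165 to 2.56 and 12.3 to 23.1 CPM (log2 fold change 4.44, SE 1.15, edgeR adjusted p = 0.131). Pax6, the eye and forebrain paired-box factor, held 0.312 to 8.12 CPM and then 31.7 to 65.6 CPM (log2 fold change 3.95, SE 0.96, edgeR adjusted p = 0.106), and Shox2 held 4.85 to 20.9 and 33.8 to 64.3 CPM (log2 fold change 2.04, SE 0.63, edgeR adjusted p = 0.253). Cdx2, a gut and tail-bud factor, had 0 counts in the 4 younger mutants and 5.17, 2.60, 5.96 and 7.52 CPM in the older ones, at least 36.3-fold higher, taking 3 counts in the whole group as the floor, without a call (edgeR adjusted p = 0.122). Over all 243 patterning factors of 11 families outside HOX, at least 3 counts were found for 92 to 119 at 4 months and for 167 to 184 at 8 months, and for 74 to 111 in wt. Their summed level was 869.7 to 1396 CPM and 1519.7 to 1744 CPM, and 763 to 1062 and 768 to 773 CPM in wt. Of these, 138 passed the filter, which a gene could pass through its 8-month level alone, and 3 were called higher and 0 lower (0.115% and 0.128% over all genes). The log2 fold change was positive for 100 of the 138 and negative for 38, beside 7633 and 8000 of all tested genes. By family, the summed level of the 57 forebrain and NK homeobox genes went from 32.6 to 113 to 174.6 to 231 CPM, of the 12 LIM genes from 20 to 38.0 to 90.8 to 136 CPM and of the 9 PAX genes from 5.10 to 29.1 to 61.2 to 97.4 CPM. The sums of the forkhead, the Shox2 and paired-like and the bHLH genes were also higher at 8 months without overlap. The sums of the 18 SOX genes (139 to 154 and 140.1 to 170 CPM) and of the 11 Iroquois and ZIC genes (22.5 to 58.1 and 31.3 to 41.0 CPM) overlapped between the ages. Those of the T-box, the Onecut and POU, and the GATA and other zinc finger genes overlapped too. For the GATA and other zinc finger genes the mean sum was lower at 8 months (328.9 and then 290.2 CPM).

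Transporter genes for transmitters other than serotonin included 3 that were called higher. Slc32a1 (chromosome 2, 158607260 to 158615747), which loads GABA and glycine into vesicles, stood at 3.95, 9.32, 8.97 and 7.96 CPM at 4 months and 62.2, 72.5, 61.4 and 63.7 CPM at 8 months. The older libraries were close to each other and all above the younger ones (log2 fold change 3.13, SE 0.42, edgeR adjusted p = 0.000713). In wt it held 5.47 to 11.5 CPM and then 8.94 to 28.0 CPM, and the interaction was 2.35 (SE 0.57, unadjusted edgeR p = 0.000471, adjusted p = 0.387). Slc6a5, the neuronal glycine transporter, stood at 21.1, 11.2, 12.8 and 17.6 CPM and then 117, 94.9, 131 and 140.4 CPM, without overlap (log2 fold change 2.88, SE 0.55, edgeR adjusted p = 0.0277). Its wt levels were 0.341 to 9.70 CPM and 3.86 to 52.1 CPM (log2 fold change 1.48, SE 0.57, unadjusted edgeR p = 0.017), and the interaction was 1.40 (SE 0.77, unadjusted p = 0.0824). Slc17a6, the vesicular glutamate transporter of brainstem and thalamus, stood at 34.9, 10.4, 18.8 and 16.7 CPM and then 128, 105, 90.9 and 131 CPM, without overlap (log2 fold change 2.47, SE 0.50, edgeR adjusted p = 0.0363). Its wt levels were 14.7 to 62.6 CPM and 7.54 to 72.6 CPM. The mean was 20.2 CPM in the 4-month mutants and 114 CPM in the 8-month mutants, against 45.7 and 41.0 CPM in wt. The interaction was 2.78 (SE 0.69, unadjusted edgeR p = 0.000601, adjusted p = 0.403). The calls of Slc6a5 (adjusted p 0.0254 to 0.129) and of Slc17a6 (adjusted p 0.0108 to 0.157) were each lost without S426, S427, S429, S442, S443, S446 or S447, whereas that of Slc32a1 held without each library. Slc32a1 overlaps the non-coding gene Gm14204.

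The GABA-synthesizing enzymes were not called. Gad1, whose gene overlaps the non-coding Gad1os, stood at 95.1, 72.5, 40.6 and 93.4 CPM at 4 months and 216, 290.2, 174.8 and 195 CPM at 8 months, without overlap but without a call (log2 fold change 1.53, SE 0.35, edgeR adjusted p = 0.0754). Gad2 stood at 82.3, 31.7, 67.1 and 109.8 CPM and then 121, 121, 152 and 146 CPM (log2 fold change 0.91, SE 0.25, edgeR adjusted p = 0.182). Gad1 was called in a fit of the 8 mutant libraries alone (log2 fold change 1.51, edgeR adjusted p = 0.0163). Each of the 5 GABA and glycine genes was higher at an unadjusted p under 0.05 (4.83% over all genes), 2 of them called (0.115% over all genes). All 5 were higher at 8 months without overlap between the ages (4.04% over all genes). Their median log2 fold change was 1.53 in mutants and 0.77 in wt, where 2 of 5 passed an unadjusted p under 0.05 (3.19%), and the interaction was positive at an unadjusted p under 0.05 for 1 of 5, Slc32a1 (1.94% over all genes). Slc17a8, the vesicular glutamate transporter that serotonergic neurons themselves use, had a negative log2 fold change, with 90.8, 71.2, 91.0 and 59.0 CPM and then 41.5, 47, 34.8 and 40.5 CPM, without a call (log2 fold change -0.93, SE 0.25, edgeR adjusted p = 0.17). Its wt levels were 55.6 to 122 and 46.8 to 61.9 CPM, with a log2 fold change of -0.86 (SE 0.26). Of the 3 glutamate neuron markers listed, 1 was called higher (0.115% over all genes) and 2 had a negative log2 fold change (median -0.84 in mutants and -0.86 in wt). Th, tyrosine hydroxylase of catecholamine neurons, held 6.58, 2.98, 4.27 and 6.25 CPM and then 23.6, 17.7, 8.77 and 27.2 CPM, against 3.05 to 15 and 13.9 to 35.6 CPM in wt (log2 fold change 1.92, SE 0.54, edgeR adjusted p = 0.189). Chat, choline acetyltransferase, was at 0 to 0.186 CPM and then 1.89 to 8.28 CPM without a call (log2 fold change 5.78, SE 1.78, edgeR adjusted p = 0.253).

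**Figure D4:**
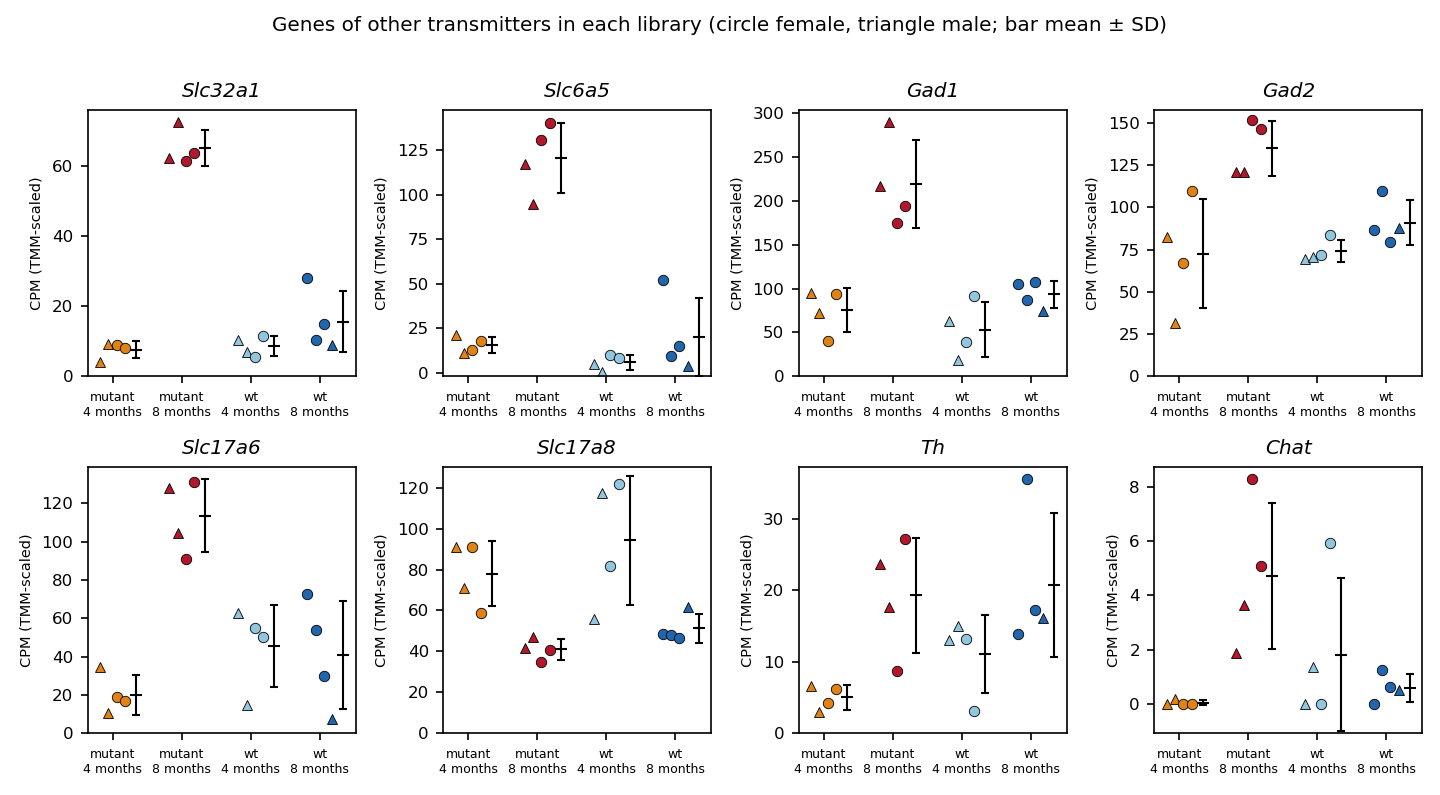
The plot of genes for other transmitters gives the CPM of 8 genes (vertical axes) in each library of the 4 groups (horizontal axes), with circles for females, triangles for males and a bar for mean ± SD (n = 4). Slc32a1, Slc6a5, Gad1 and Slc17a6 stand higher in all 8-month mutants than in any other library, whereas Slc17a8 is lower at 8 months and the wt values of Th overlap the mutant ones.

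Of the cell cycle inhibitor genes Cdkn2a and Cdkn2b on chromosome 4, a classic Polycomb target, neither was called. Cdkn2a stood at 0.165, 0, 1.71 and 0.156 CPM at 4 months, highest in S427, and at 8.09, 5.55, 4.30 and 4.30 CPM at 8 months (log2 fold change 4.01, SE 1.54, edgeR adjusted p = 0.431). Cdkn2b stood at 6.74, 0, 0.427 and 1.25 CPM and then 14.8, 14.6, 11.8 and 12.4 CPM (log2 fold change 3.10, SE 1.39, edgeR adjusted p = 0.52). The ages did not overlap for either gene, although S425 held more Cdkn2b than the other 4-month mutants. Wt libraries held 0 CPM of Cdkn2a at 4 months and 0 to 0.359 CPM at 8 months, and 0 to 8.04 CPM of Cdkn2b at 4 months and 0 to 0.307 CPM at 8 months, so that 1 young wt library lay above every 4-month mutant. Cdkn1a, another inhibitor, held 7.57, 11.6, 5.55 and 31.7 CPM and 16.4, 19.1, 18.5 and 25.8 CPM with overlap (log2 fold change 0.56, SE 0.74, edgeR adjusted p = 0.894). Ccnd2, a D-type cyclin, held 8.43 to 10.3 CPM and then 27.6 to 51.3 CPM (log2 fold change 2.07, SE 0.68, edgeR adjusted p = 0.31). Of the 10 genes of this list 9 passed the filter, 0 were called and 3 had an unadjusted p under 0.05, all higher (4.83% over all genes).

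Of the Polycomb genes themselves, 1 was called higher (0.115% over all genes) and 0 lower (0.128%). Pcgf1 (chromosome 6, 83077552 to 83080855), a subunit of a variant PRC1 complex, stood at 19.7, 30.6, 21.4 and 27.3 CPM at 4 months and 76.6, 59.2, 93.4 and 71.6 CPM at 8 months. The ages did not overlap, and wt libraries held 26.3 to 30.7 and 18.2 to 29.6 CPM (log2 fold change 1.6, SE 0.28, edgeR adjusted p = 0.0106). The interaction was 1.87 (SE 0.39, unadjusted edgeR p = 8.39e-05, adjusted p = 0.234), and the call was lost without S446 (adjusted p 0.0815). The other 20 PRC1 genes tested had 0 calls and 0 at an unadjusted p under 0.05, with a median over all 21 of -0.10. The 12 PRC2 genes tested had 0 calls and 0 at an unadjusted p under 0.05 (median -0.14), and so had the 14 H3K27 demethylase and trithorax genes (median -0.13). Over all tested genes 9.15% passed that unadjusted threshold, so lists this short can hold 0 at that share.

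The remaining called genes belonged to none of these groups. Gucy2f, a guanylate cyclase gene best known from photoreceptors, stood at 15.8, 56.5, 21.4 and 16.1 CPM at 4 months and 0.517, 3.64, 1.32 and 3.69 CPM at 8 months, below all wt libraries (log2 fold change -3.49, SE 0.57, edgeR adjusted p = 0.00669). Muc6, a mucin gene, stood at 45.2, 106, 224 and 67.8 CPM and then 25.1, 3.82, 15.2 and 2.76 CPM (log2 fold change -3.32, SE 0.60, edgeR adjusted p = 0.0187), and lost its call without S443 or S447 (adjusted p 0.00628 to 0.0953). Nwd2 stood at 100.4, 168, 134 and 127 CPM and then 22.7, 36.3, 38.1 and 49.8 CPM, without overlap (log2 fold change -1.85, SE 0.27, edgeR adjusted p = 0.00159). Plch1, a phospholipase C gene, stood at 93.4, 78.1, 43.2 and 59.6 CPM and then 24.3, 39.2, 13.6 and 10.6 CPM (log2 fold change -1.71, SE 0.29, edgeR adjusted p = 0.00898), and lost its call without S446 or S447 (adjusted p 0.00364 to 0.0849). Gucy2f and Nwd2 were called without each library in turn.

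Smaller falls were called for Nbl1, a secreted BMP antagonist (29.1 to 59.0 and 8.44 to 17.7 CPM, -1.70), Gpr4, a proton-sensing receptor (31.2 to 58.5 and 11.8 to 23.4 CPM, -1.63), and Rasgrp1, a Ras activator (77.2 to 119.6 and 28.1 to 53.6 CPM, -1.38). The same held for Amer1, a WNT regulator (86.5 to 170.5 and 34.9 to 65.1 CPM, -1.36), Smc2, a condensin subunit (27 to 55.5 and 12.7 to 24.8 CPM, -1.35), and the imprinted gene Usp29 (110.4 to 181 and 67.0 to 81.9 CPM, -0.97), which overlaps Zim3. Mgll (-1.29), the enzyme that degrades the endocannabinoid arachidonoylglycerol, Lcorl (-1.26) and Ttyh3 (-0.79) were called lower too. Of Mgll the mutants held 72.1 to 173 CPM at 4 months, above all wt libraries (60.0 to 66.1 and 40.0 to 68.2 CPM). At 8 months they held 36.8 to 57.8 CPM, which overlapped wt. Over the 9 genes of these smaller falls the edgeR adjusted p ran from 0.0240 to 0.0421. Each lost the call in some of the edgeR fits without 1 library. Nbl1 lost it without S427, S442, S443 or S447 (adjusted p 0.0445 to 0.136), Gpr4 without S425, S426, S429, S443, S446 or S447 (0.00716 to 0.135), Lcorl without S425, S429, S442, S446 or S447 (0.0243 to 0.179) and Usp29 without S425, S429, S442, S443, S446 or S447 (0.0318 to 0.129). Rasgrp1 kept it only without S442 (adjusted p 0.0461 to 0.177), Amer1 and Smc2 only without S425 (0.0449 to 0.219 and 0.0449 to 0.202), Mgll only without S429 (0.0145 to 0.154) and Ttyh3 only without S427 (0.0467 to 0.234). Mgll, Lcorl and Ttyh3 were named after their values were seen, to complete the list of called genes.

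Among the higher genes were Ret, the receptor tyrosine kinase for neurotrophic factors of the GDNF family, and genes of nutrient uptake. Ret stood at 46.2, 23.1, 93.1 and 42 CPM at 4 months and 223, 200.4, 292 and 191 CPM at 8 months, without overlap and above all wt libraries (4.12 to 43.2 and 43.1 to 56.1 CPM; log2 fold change 2.22, SE 0.43, edgeR adjusted p = 0.0279). Slc27a1, a fatty acid transporter, stood at 50.3, 18.8, 21.8 and 29.2 CPM and then 82.3, 89.3, 70.4 and 82.3 CPM (log2 fold change 1.43, SE 0.29, edgeR adjusted p = 0.0382). Slc27a1 was higher at 8 months in wt by a similar amount (1.19, SE 0.29, unadjusted edgeR p = 0.000512), and the interaction was 0.25 (SE 0.41, unadjusted p = 0.553). Slc2a1, a glucose transporter also abundant in endothelial cells, was at 20.5 to 32.9 CPM and then 43.1 to 96.0 CPM (1.41). Tmem59l (1.18) and Tmem130 (1.04) were called higher as well (edgeR adjusted p = 0.0363, 0.0412 and 0.0349 for the 3). In wt, Tmem59l had a log2 fold change of 0.54 (unadjusted edgeR p = 0.0394) and Tmem130 of 0.52 (unadjusted p = 0.0213), and their interactions were 0.64 (unadjusted p = 0.0766) and 0.52 (unadjusted p = 0.0914). The calls of Tmem59l (adjusted p 0.07 to 0.178) and Tmem130 (0.053 to 0.146) were lost without any 1 library. Ret kept its call only without S427 (adjusted p 0.00693 to 0.124), Slc27a1 only without S425 (0.00799 to 0.166) and Slc2a1 only without S442 (0.0346 to 0.199). Slc2a1, Tmem59l and Tmem130 were also named after their values were seen.

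The smallest interaction p-values outside the genes above came with wt levels that moved the other way. Lss, which encodes lanosterol synthase, held 119 to 163 CPM and then 45.9 to 91.3 CPM in mutants and 57.8 to 137 and 89.9 to 170.4 CPM in wt (interaction -1.87, SE 0.36, edgeR adjusted p = 0.194). Adcyap1, the neuropeptide PACAP gene, held 22.4 to 41.7 and 56.2 to 135 CPM in mutants and 19.1 to 72.1 and 14.4 to 40.4 CPM in wt (interaction 2.04, SE 0.44, adjusted p = 0.238). Drc1, a gene of motile cilia, held 10.3 to 26.5 and 39.0 to 61.1 CPM and 25.3 to 33.7 and 13.1 to 27.9 CPM in wt (interaction 2.20, adjusted p = 0.242). Zfp810, a zinc finger gene, held 22.2 to 52.3 and 16 to 21.7 CPM and 3.50 to 11.1 and 11.4 to 33.3 CPM (interaction -2.97, adjusted p = 0.234). None of these 4 interactions passed the threshold.

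Markers of cells other than neurons were present in every sorted sample and stood higher at 8 months for some types. The summed level of 15 astrocyte markers was 799.5, 634, 429.4 and 787 CPM at 4 months and 843, 1069, 881 and 883 CPM at 8 months, without overlap, and 486 to 853 and 758 to 1024 CPM in wt. Of these markers 13 had a positive log2 fold change (median 0.85, against 0.79 in wt), 4 at an unadjusted p under 0.05 (4.83% over all genes). The 14 microglia and macrophage markers summed to 57.2 to 61.7 CPM and 89.4 to 119.6 CPM, and to 53.9 to 113 and 133 to 206 CPM in wt. The 15 oligodendrocyte markers (477 to 1829.7 and 1224 to 2218 CPM) and the 14 endothelial and mural markers (23.9 to 129 and 92.7 to 175.4 CPM) overlapped between the ages. In mutants the sums of 8 ependymal and choroid markers were 25.5 to 40.6 and 38.0 to 206 CPM, highest in S442, and those of 7 leptomeningeal markers 15.8 to 26.5 and 7.29 to 21.5 CPM. The 7 oligodendrocyte precursor markers summed to 28.6 to 64.5 and 26.9 to 58.9 CPM. None of the markers in these 7 lists was called, and the only listed non-neuronal marker at 0 in all 8 mutants was 1 of 2 erythroid genes in the table. The 18 immediate early genes, which respond to activity and to tissue dissociation, summed to 102 to 194 CPM and 191.9 to 373.9 CPM and to 125 to 173 and 86.1 to 167 CPM in wt. Fos stood at 16.6, 17.3, 0.855 and 13.0 CPM and then 76.6, 83.6, 39.2 and 49.8 CPM (log2 fold change 2.35, SE 0.73, edgeR adjusted p = 0.258). The part of these markers in the changes described above was not tested.

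**Figure D5:**
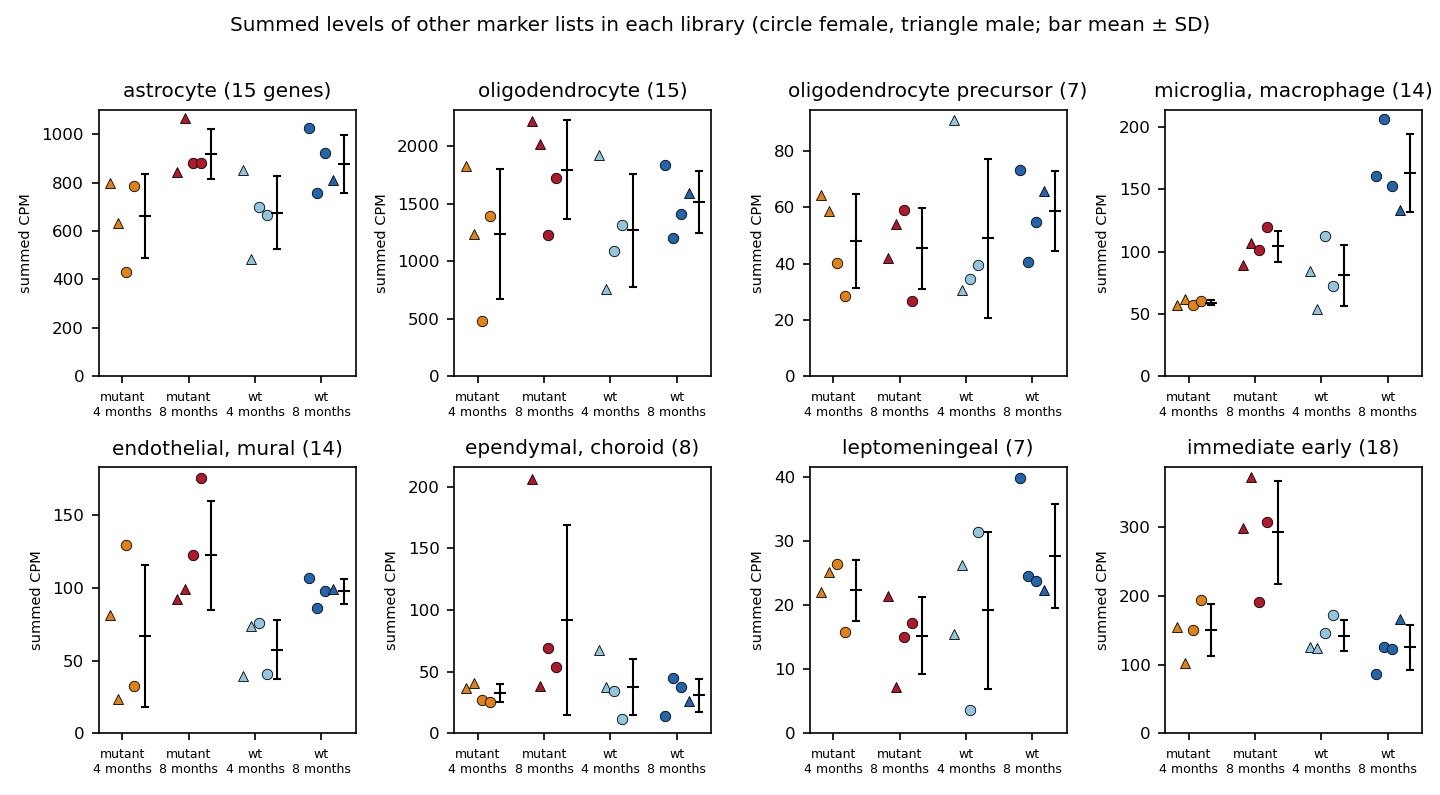
The plot of marker sums gives the summed CPM of 8 marker lists (vertical axes) in each library of the 4 groups (horizontal axes), with circles for females, triangles for males and a bar for mean ± SD (n = 4). Astrocyte and microglia sums of the 8-month mutants (843 to 1069 and 89.4 to 120 CPM) stand above those of the 4-month mutants. The wt groups show a shift in the same direction for both, with overlap for astrocytes (486 to 853 and 758 to 1024 CPM).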

How the data were processed

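Raw read counts were deposited by the authors in 1 table of genes by libraries, from which the 16 5HT columns were used. The submitters' processing notes name STAR 2.7.0a and mm10 (GRCm38); which program counted the reads, and whether by strand, is not given in the sources used here. Without molecular tags, counting intervals and floors cover counting error only. Replicates are separate animals by their numbers, and no label pairs animals across ages. Replicates of a group differed by a chi-square of at least 13.1 per degree of freedom, and 0 columns were identical. Sex from the counts matched the label in 16 of 16 libraries. The mCherry row, at most 0.00294% of a library, stayed out of totals and tests.

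The test was edgeR 4.0.16 (R 4.3.3) with TMM factors, a filter by filterByExpr (groups given, minimum count 10) and robust quasi-likelihood estimation over all 16 libraries with sex as a term (residual df 11, biological coefficient of variation 0.546). A call is a Benjamini-Hochberg adjusted p under 0.05 over 15633 genes. The contrasts were 8 against 4 months in mutants, the same in wt, and their difference. Each SE is approximate, taken from the fold change and its F value. Alternatives included DESeq2 1.42.0, other scaling and filters, each sex alone and leaving out each mutant library. Coordinates and promoter windows are those of RefSeq (GRCm38.p6), where 22460 of 24564 rows matched by symbol (91.4%).

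Named genes are the called ones with the 15 largest changes on each side, at a mean log2 CPM of at least 1 and excluding Xist, genes on Y and predicted models. They also include at most 4 called members of each gene list, the 5 smallest interaction p-values on each side, and a fixed set of serotonergic, GABA, cell cycle inhibitor and Eed genes. Other list members are examples chosen after their values were seen. The comparison, lists and members were chosen with earlier results of these data known. Some genes that these rules name are not reported here.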

Additional observations from a re-analysis of the deposited data

Results flagged for a closer look

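In 9 of 106 combinations of a named gene and a mutant group, 1 library stood apart from the other 3 by a gap above Dixon's 95% critical value. Chance flags about 1 in 20 groups of normally distributed values, a rate that need not hold for counts near 0. Haglr and Pitx1 at 4 months had counts in 1 library alone, which this rule always flags. At 4 months S427 held 0.855 CPM of Haglr where the others held 0, 1.71 CPM of Cdkn2a where the others held 0 to 0.165, and 199 CPM of Tmem130 where the others held 302 to 321. S425 held 0.823 CPM of Pitx1 where the others held 0, and 3435 CPM of Slc6a4 where the others held 2415 to 2524. S426 held 56.5 CPM of Gucy2f against 15.8 to 21.4 and 211 CPM of Ttyh3 against 184 to 188. At 8 months S443 held 182 CPM of Maob against 81.1 to 90.8 and 124 CPM of Ttyh3 against 105 to 108.

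The change with age differed between mutants and wt by an interaction test for 2 genes: by -2.62 on the log2 scale for Tph2 (edgeR adjusted p = 0.000495) and by -2.51 for Slc6a4 (adjusted p = 5.22e-06). In each of the 4 older mutants both genes were below all 8 wt libraries.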

How the results depend on the processing

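The mutant comparison called 38 genes (18 higher, 20 lower), and the counts here are of genes at an adjusted p under 0.05. DESeq2 called 216 (117 higher, 99 lower), among them 36 of the 38, all but Hoxd3 and Hoxd10. Males alone gave 24 (19 higher, 5 lower) and females alone 1 (1 higher), each with 2 libraries per age. Without each of the 8 mutant libraries in turn it was 11 to 39. The 8 mutant libraries alone gave 49, of which 71.4% were higher against 47.4%, and 27 of the 38 were called there. RLE scaling (37), no filter (42), no term for sex (37) and estimation without the robust option (38) stayed within 1.5 times. After the data were seen, a filter on the mean over all 16 libraries was added (38), as was a fit without both shallowest libraries, S427 and S369, which called 97 (51 higher, 46 lower), among them all 38. In wt, 0 genes became 2 without a filter, 1 without a term for sex, 15 by DESeq2 and 7 without both shallowest libraries. For the interaction, 2 became 5 without a filter, 28 by DESeq2 and 5 without both shallowest libraries. The cause was not tested, except that fits without libraries hold fewer animals. Over the 53 named genes and 18 alternatives, 954 values in all, 0 changed direction, 676 kept their side of the threshold, 260 lost a call and 18 gained one. No paired analysis was possible because no label pairs animals across the ages. Near the floor of 3 counts, as for most HOX genes at 4 months, depth limits the size of a change.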

Other observations

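Secretory and synaptic genes of the older mutants, outside the groups above, were mixed in direction, and none was called. Among 15 dense-core granule genes, Scg5, a chaperone of prohormone convertase, held 132 to 175.8 CPM at 4 months and 248.01 to 338 CPM at 8 months (log2 fold change 0.86, SE 0.19, edgeR adjusted p = 0.0765), and Pcsk2, the convertase it binds, held 35.0 to 107.1 and 136 to 191 CPM (log2 fold change 1.04, SE 0.27, edgeR adjusted p = 0.142), whereas Pcsk1 held 98.6 to 149 and 70.1 to 90.1 CPM (log2 fold change -0.56, SE 0.24, edgeR adjusted p = 0.487). Penk, the proenkephalin gene, stood at 26.2, 24.4, 23.1 and 43.3 CPM and then 35.1, 122, 87.7 and 101 CPM (log2 fold change 1.57, SE 0.39, edgeR adjusted p = 0.12). Of 24 tested neuropeptide genes 3 were higher and 0 lower at an unadjusted p under 0.05 (4.83% and 4.32% over all genes), and 1 and 2 in wt (3.19% and 2.98%). Cacna1a, a presynaptic calcium channel subunit gene, held 132, 201, 315 and 159 CPM and then 77.7, 51.4, 106 and 78.6 CPM (log2 fold change -1.36, SE 0.31, edgeR adjusted p = 0.0732), and its wt levels were 174 to 416 and 96.0 to 151 CPM. Crhr2, a stress hormone receptor of raphe neurons, held 32.6 to 79.0 CPM and then 13.1 to 35.6 CPM (log2 fold change -1.32, SE 0.34, edgeR adjusted p = 0.127), and Oxtr, the oxytocin receptor, held 13.2 to 16.8 and 3.82 to 6.29 CPM (log2 fold change -1.70, SE 0.66, edgeR adjusted p = 0.431). Of 37 peptide and monoamine receptor genes tested, 19 had a positive and 18 a negative log2 fold change (median 0.02). At an unadjusted p under 0.05, 1 was higher and 4 lower (4.83% and 4.32% over all genes). In wt these counts were 2 and 1 (3.19% and 2.98%).

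Cholesterol synthesis genes had a median log2 fold change of -0.41 in mutants and 0.45 in wt over 23 genes, with 0 called, 1 higher and 6 lower at an unadjusted p under 0.05 in mutants (4.83% and 4.32% over all genes), and 9 higher and 0 lower in wt (3.19% and 2.98%). The interaction was negative at an unadjusted p under 0.05 for 8 of the 23, beside 2.03% of all genes. Nsdhl, a late enzyme of the pathway, held 64.0 to 83.2 and 27.2 to 47.5 CPM in mutants (log2 fold change -1.01, SE 0.27, edgeR adjusted p = 0.144). Of 28 genes of the unfolded protein response 8 were higher and 1 lower at an unadjusted p under 0.05 (4.83% and 4.32% over all genes), and 3 and 0 in wt (3.19% and 2.98%). Their summed level was 1709 to 2858 CPM and 2898 to 3610.5 CPM, and 1742 to 2671 and 2597 to 3081 CPM in wt. Pdia3, a chaperone of the endoplasmic reticulum, held 79.0 to 158 and 198 to 295.3 CPM (log2 fold change 0.97, SE 0.29, edgeR adjusted p = 0.239). Of 75 nuclear genes of oxidative phosphorylation 0 were higher and 1 lower at an unadjusted p under 0.05 (median 0.08), and of 30 apoptosis and p53 response genes 0 passed it in either direction (median 0.19).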
